A study of Homo sapiens with 6 samples.

Results

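The 10 genes described here encode the cohesin complex and the proteins that load it, remove it and stop it on chromatin. They are SMC1A, SMC3, RAD21, STAG1, STAG2, NIPBL, WAPL, PDS5A, PDS5B and CTCF. They were chosen by symbol, and each matched 1 row among the 60676 genes of the count table. Transcripts were measured by RNA-seq in TC71, a Ewing sarcoma cell line, in 3 shNTC+Dox libraries and 3 shEHD1+Dox libraries. All 6 came from stable polyclonal cells carrying a doxycycline (Dox)-inducible lentiviral shRNA construct, grown with 0.5 µg/ml Dox for 3 days. The shNTC+Dox cells (controls) expressed a non-targeting shRNA, and the shEHD1+Dox cells (knockdown) one against EHD1, a regulator of endocytic recycling. The comparison asks how the transcripts changed upon EHD1 knockdown. Dox exposure was shared by both groups, and which EHD1 shRNA was used in these libraries is not given in the sources used here. No source states that the 3 libraries of a group came from separate cultures, so p-values measure the spread between these libraries, which may be technical.

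Cohesin is a ring built from SMC1A, SMC3 and RAD21, to which 1 of the paralogs STAG1 or STAG2 is bound. NIPBL, with its partner MAU2, loads the ring onto DNA and drives loop extrusion, WAPL with PDS5A or PDS5B opens it, and CTCF bound to DNA stops it, so that loops end at CTCF sites. The same ring holds sister chromatids together from S phase to anaphase. In Ewing sarcoma, STAG2 is known as a gene with recurrent loss-of-function mutations.

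All 10 genes passed the filter on low counts, at 1415 counts or more in every library. NIPBL and WAPL were higher in shEHD1+Dox than in shNTC+Dox, by 33.9% and 26.3%. The other 8 did not pass an adjusted p of 0.05 in edgeR's quasi-likelihood test or in DESeq2, and 2 of the 10 had an unadjusted p under 0.05, against 32.3% of all genes tested. No member was lower past that threshold, and none reached the 2-fold change that the study also required. Across all 16785 genes tested, 8.59% were higher at an adjusted p under 0.05, 8.75% were lower, 17.3% passed in either direction, or 21.6% by DESeq2, and 2.82% also reached 2-fold. Among the 4072 genes at least as abundant as the lowest member, 12.5% were higher. The count of 2 in 10 therefore describes NIPBL and WAPL as single genes and is not a result about the set. In bulk RNA, fewer cells of a type or cell cycle phase and less RNA per cell cannot be told apart. Over the 10 members the log2 fold changes had a median of 0.06, against 0.00 over all genes tested, and the members' median was -0.041 without shEHD1+Dox replicate 2.

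**Figure D1:**
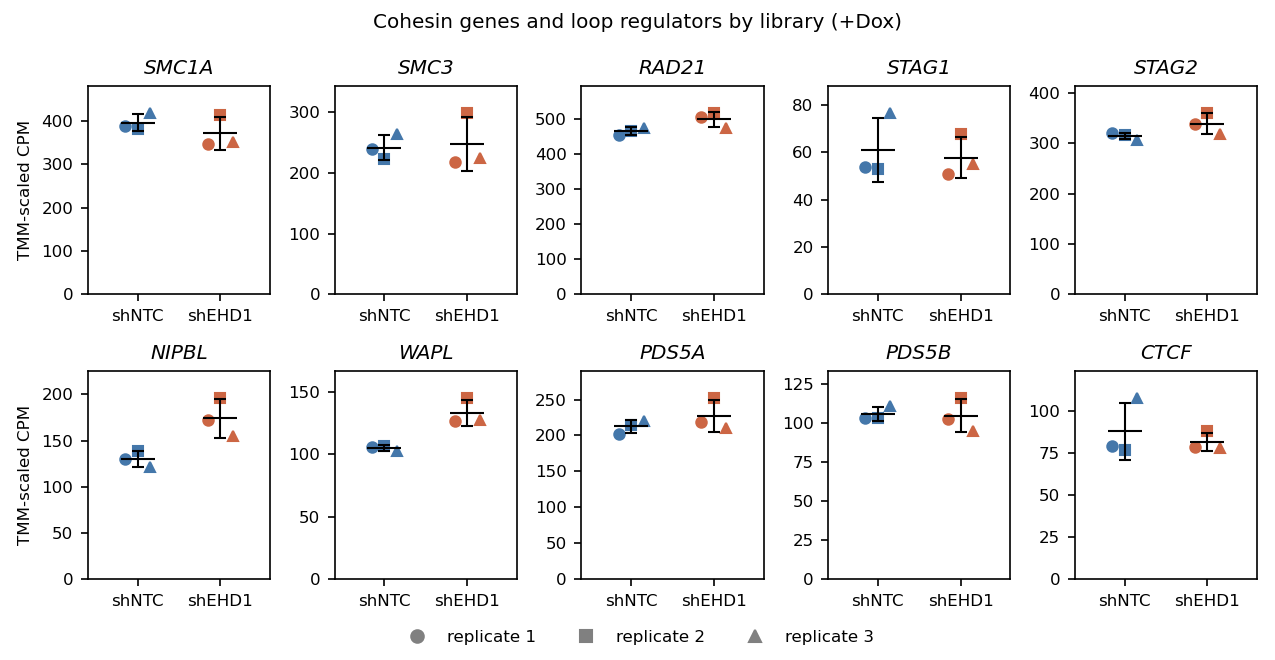
CPM (counts scaled by TMM to a common library size) of each of the 10 genes in each library, on linear axes that start at 0. Symbols mark the replicate number, and the black bar and whiskers give the mean and SD of 3 libraries; NIPBL and WAPL are the genes whose groups do not overlap.

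EHD1, the shRNA target (ENSG00000110047, chr11:64851642-64888296, minus strand), was at 27.1, 28.0 and 26.4 CPM in the controls and 7.55, 7.15 and 9.37 CPM in the knockdown, counts being scaled to library size by TMM. Its log2 fold change was -1.76 (standard error, SE, 0.12; edgeR adjusted p = 1.35e-04). Library totals ran from 22711235 to 30582187 counts. On the second principal component of log2 CPM, which held 22.0% of the variance, shNTC+Dox replicate 3 lay at -38.7 and shEHD1+Dox replicate 2 at -24.2, with the other 4 libraries between -1.01 and 32.8. Of the 7 Ewing sarcoma markers, each was detected, with a summed level of 2188 to 2266 CPM per library in the controls and 1926 to 2050 CPM in the knockdown. Past the edgeR threshold, CD99 was higher (log2 0.33, adjusted p = 0.0293), and STEAP1 (-0.43, adjusted p = 0.00443) and PAX7 (-0.38, adjusted p = 0.0107) were lower. With each library left out in turn, CD99 lost its call in 4 of 6 fits, all but those without shNTC+Dox replicate 3 or shEHD1+Dox replicate 2, and PAX7 in 1, that without shEHD1+Dox replicate 1 (adjusted p = 0.0521). CD3E and KRT5 had 0 counts in all libraries, the 3 leukocyte markers and the 3 epithelial markers each summed to at most 0.403 CPM in a library, and the 4 fibroblast markers summed to 20.0 to 29.9 CPM in the controls and 24.5 to 27.6 CPM in the knockdown. Of these 4, DCN was lower, at 4.85 ± 0.53 against 2.40 ± 0.25 CPM (SD, n = 3 each, edgeR adjusted p = 0.00778). The part of these markers in the members' values was not tested.

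The ring subunits SMC1A, SMC3 and RAD21 did not differ past the threshold. RAD21 (ENSG00000164754), the kleisin that closes the ring and is cut by separase at anaphase, had the most counts of the 10, at 455.7, 468.0 and 476.9 CPM in the controls and 507.8, 517.9 and 476.4 CPM in the knockdown. The shEHD1+Dox value of replicate 3 lay within the control range, and the other 2 lay above it. Its log2 fold change was 0.10 (SE 0.07, 95% interval -0.05 to 0.25, edgeR adjusted p = 0.323). The estimated variation of RAD21 between replicates, 6.80% of its level, was lower than that of all but 1.58% of the genes tested. The median was 13.3% over all genes tested, and 8.01% over the 4072 genes at least as abundant as the lowest member. Other genes share 5.89% of its annotated exon bases.

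SMC1A (ENSG00000072501, chrX:53374149-53422728, minus strand), an ATPase arm of the ring, was at 387.9, 381.8 and 417.3 CPM in the controls and 347.1, 413.7 and 351.3 CPM in the knockdown. Its log2 fold change was -0.09, with a 95% interval from -0.29 to 0.10 (edgeR adjusted p = 0.485). SMC3 (ENSG00000108055, chr10:110567684-110606048, plus strand), the other ATPase arm, was at 238.7, 222.4 and 263.5 CPM in the controls and 218.7, 298.3 and 224.8 CPM in the knockdown. Both subunits were low in shEHD1+Dox replicates 1 and 3 and high in replicate 2. The log2 fold change of SMC3 was 0.03 (95% interval -0.25 to 0.31, edgeR adjusted p = 0.878), and it was -0.12 without shEHD1+Dox replicate 2.

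STAG1 and STAG2 are alternative subunits of the ring that carry its contacts with CTCF and DNA. STAG2 (ENSG00000101972, chrX:123960212-124422664, plus strand) was at 319.9, 315.9 and 307.0 CPM in the controls and 339.1, 359.6 and 318.2 CPM in the knockdown. The groups overlapped by 1 library, shEHD1+Dox replicate 3. The log2 fold change was 0.11 (95% interval -0.05 to 0.26, edgeR adjusted p = 0.308), so the interval in percent ran from -3.08% to 20.0%. STAG1 (ENSG00000118007, chr3:136336236-136752403, minus strand) was at 53.8, 52.9 and 76.6 CPM in the controls and 50.7, 67.7 and 55.2 CPM in the knockdown. One library in each group stood above the other 2. STAG1 had the widest 95% interval of the 10 genes, -0.46 to 0.30 around a log2 estimate of -0.08 (edgeR adjusted p = 0.785). Without shNTC+Dox replicate 3 the estimate was 0.12 (adjusted p = 0.514). Of the annotated exon bases of STAG1, 21.2% are shared with PCCB on the opposite strand. The library kit does not keep strand, so reads there could belong to either gene, and PCCB differed by -0.13 on the log2 scale, short of the threshold (edgeR adjusted p = 0.489).

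NIPBL (ENSG00000164190, chr5:36876769-37066413, plus strand), the cohesin loader, rose from 129.8, 138.3 and 121.4 CPM in the controls to 172.0, 195.7 and 154.3 CPM in the knockdown. Every shEHD1+Dox library lay above every shNTC+Dox library, a pattern that 19.9% of all genes tested showed in that direction, 19.4% in the opposite one and 39.3% in either. The log2 fold change was 0.42 (SE 0.09, 95% interval 0.21 to 0.64, edgeR adjusted p = 0.0182), and the exact two-sided permutation p was 0.1, the smallest that 3 libraries against 3 allow. By p-value NIPBL ranked 1531 among the 16785 genes. No annotated exon of NIPBL is shared with another gene. The call rested on the full set of libraries in part: the adjusted p was 0.0560 without shNTC+Dox replicate 1 and 0.0594 without shEHD1+Dox replicate 1, at log2 fold changes of 0.42 and 0.43.

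The divergent long non-coding RNA NIPBL-DT (ENSG00000285967, chr5:36864425-36876700, minus strand) starts 69 bases from NIPBL on the other strand, and was looked up after the NIPBL result was seen. It moved the opposite way, from 16.5, 15.2 and 15.8 CPM in the controls to 11.8, 11.0 and 10.8 CPM in the knockdown. Its log2 fold change was -0.50 (SE 0.10, 95% interval -0.74 to -0.26, edgeR adjusted p = 0.0132). The adjusted p was 0.0536 without shNTC+Dox replicate 1 and 0.0621 without shEHD1+Dox replicate 3. The linear ratio of NIPBL to NIPBL-DT was taken with each per kilobase of annotated exon. It was 4.55 ± 0.42 in the controls and 8.62 ± 1.11 in the knockdown (SD, n = 3 each). The groups of this ratio had to lie apart, since those of NIPBL and NIPBL-DT lay apart in opposite directions.

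WAPL (ENSG00000062650, chr10:86435256-86521792, minus strand), which releases cohesin from DNA, was at 105.7, 106.9 and 102.7 CPM in the controls and 126.4, 144.8 and 127.0 CPM in the knockdown. The 3 control libraries lay close together and below all knockdown libraries. Its log2 fold change was 0.34 (SE 0.07, 95% interval 0.17 to 0.50, edgeR adjusted p = 0.0156), with an exact permutation p of 0.1. Without shNTC+Dox replicate 1 the adjusted p was 0.0532 at a log2 fold change of 0.34. The difference between the rises of the loader and the releasing factor was not tested. The linear ratio of NIPBL to WAPL per kilobase was 0.71 ± 0.03 in the controls and 0.75 ± 0.05 in the knockdown (SD, n = 3 each), with overlapping groups.

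PDS5A and PDS5B are paralogs that bind the ring and take part both in release with WAPL and in keeping cohesion. PDS5A (ENSG00000121892, chr4:39822863-39977956, minus strand) was at 202.6, 215.0 and 220.8 CPM in the controls and 219.3, 251.8 and 210.2 CPM in the knockdown. PDS5B (ENSG00000083642, chr13:32586452-32778019, plus strand) was at 103.4, 103.4 and 111.1 CPM in the controls and 103.0, 116.1 and 95.1 CPM in the knockdown. Values of the 2 groups overlapped for both. The log2 fold changes were 0.09 for PDS5A (95% interval -0.09 to 0.28) and -0.02 for PDS5B (95% interval -0.21 to 0.17), with edgeR adjusted p-values of 0.469 and 0.912.

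CTCF (ENSG00000102974, chr16:67562467-67639177, plus strand), the zinc finger protein at loop anchors, was at 79.1, 77.1 and 107.8 CPM in the controls and 79.0, 88.1 and 78.5 CPM in the knockdown. The high value of shNTC+Dox replicate 3 set the sign of the difference. The log2 fold change was -0.10 (95% interval -0.39 to 0.19, edgeR adjusted p = 0.619), and 0.07 without that library (adjusted p = 0.544). A long non-coding RNA on the opposite strand shares 13.1% of the annotated exon bases of CTCF.

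**Figure D2:**
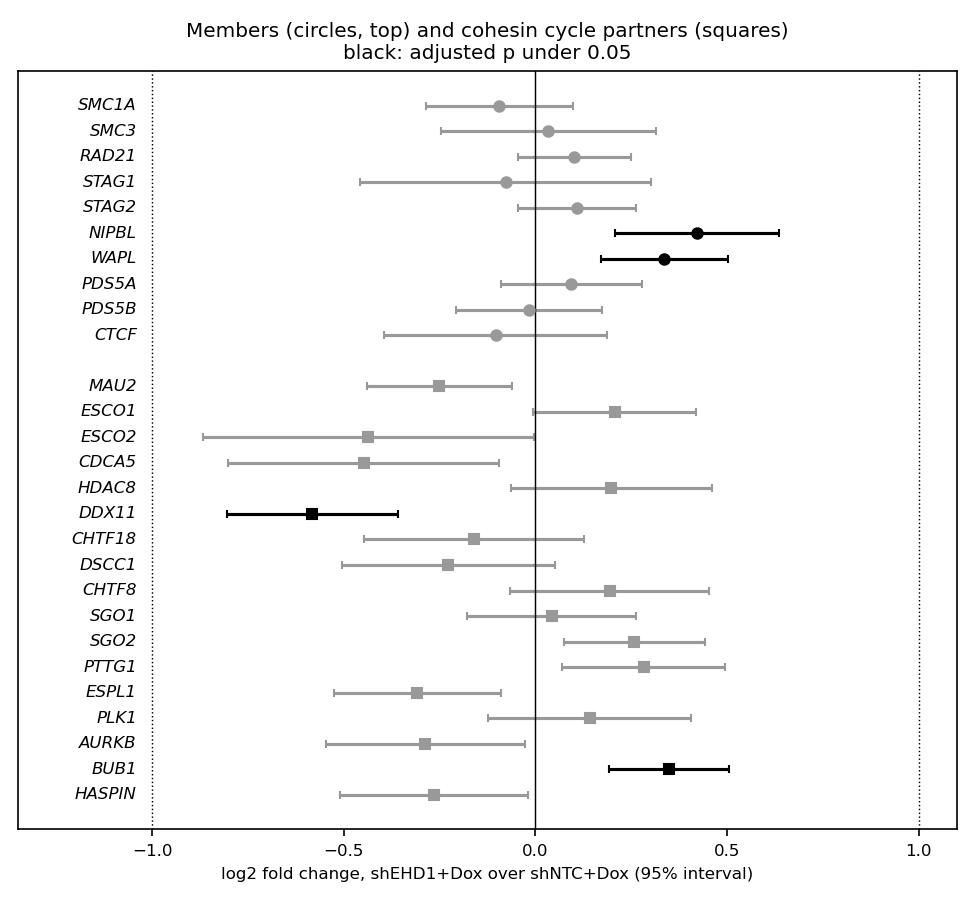
Log2 fold change of shEHD1+Dox over shNTC+Dox with 95% intervals from the quasi-likelihood fit, for the 10 members (circles) and 17 genes that act on cohesin through the cell cycle (squares). Black marks an edgeR adjusted p under 0.05, which NIPBL, WAPL, DDX11 and BUB1 reached, and dotted lines mark 2-fold, which no interval of a member reaches.

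Short words known to bind cell cycle and general promoter factors were searched for on both strands of RefSeq promoters (GRCh38.p14, 250 bases before to 50 after the start). Entries were found for 9 members, all but RAD21. The E2F word TTTGGCGC was present for NIPBL and STAG2 and in 0.795% of the 27305 genes with a promoter. The E2F word TTTCCCGC was present for SMC1A and STAG1 and in 1.98% of genes. The word TTTCGCGC, the NRF1 consensus word, the YY1 word AAGATGGCG and the CTCF core motif were in no member's window. CCAAT was present for 5 members, PDS5A, PDS5B, STAG1, STAG2 and WAPL, and in 39.7% of genes. STAG2 has 3 entries and SMC1A 2, which gives these genes more bases in which a word can occur. The windows of the 4 members with an E2F word, and 1 window of WAPL with CCAAT, are shown with the word in capitals, each read along its gene's strand. Any link between a word and a change in level was not tested.
NIPBL, chr5:36876710-36876737, plus strand, 49 bases before the start: gttgttagtgTTTGGCGCcggcggaggg
STAG2, chrX:123961997-123962024, plus strand, 51 bases before the third listed start: gttggggggtTTTGGCGCcacttttgtt
SMC1A, chrX:53422657-53422684, minus strand, 20 bases before the start: cactgcggcgTTTCCCGCgcgggctacc
STAG1, chr3:136752544-136752571, minus strand, 183 bases before the start: agcggccacgTTTCCCGCcccgctggtg
WAPL, chr10:86521891-86521915, minus strand, 113 bases before the start: cgcggccgggCCAATggcgggcgcc
The NIPBL window lies between the starts of NIPBL and NIPBL-DT. WAPL had no E2F word. A match is a description of the letters and not of binding.

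The 10 genes shared a library pattern in shEHD1+Dox, where replicate 2 held the highest value of all 10 members. In shNTC+Dox, replicate 3 held the highest value of 7 and the lowest of 3, which were STAG2, NIPBL and WAPL. Over all genes tested these 2 libraries were highest in their groups for 38.8% and 41.5% of genes. Among 1839 genes at least as abundant as the lowest member and with a longest transcript of at least 4802 bases, the length for the shortest member, shEHD1+Dox replicate 2 was highest for 70.3%. The members thus moved in this library with other long, abundant transcripts, and the part of this in their fold changes was not tested beyond leaving the library out. Without it, NIPBL stayed past the threshold with a change of 0.33 on the log2 scale (edgeR adjusted p = 0.0447) and WAPL at 0.27 (adjusted p = 0.0314). Among the same 1839 genes, 14.6% were higher at an adjusted p under 0.05, and the median log2 fold change was 0.03. Within the controls, shNTC+Dox replicate 3 was highest for 43.1% of these genes and lowest for 46.7%. In shNTC+Dox replicate 3, STAG1 and CTCF lay 0.38 and 0.35 above their 6-library means on the log2 scale, while NIPBL and WAPL lay at -0.30 and -0.20.

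**Figure D3:**
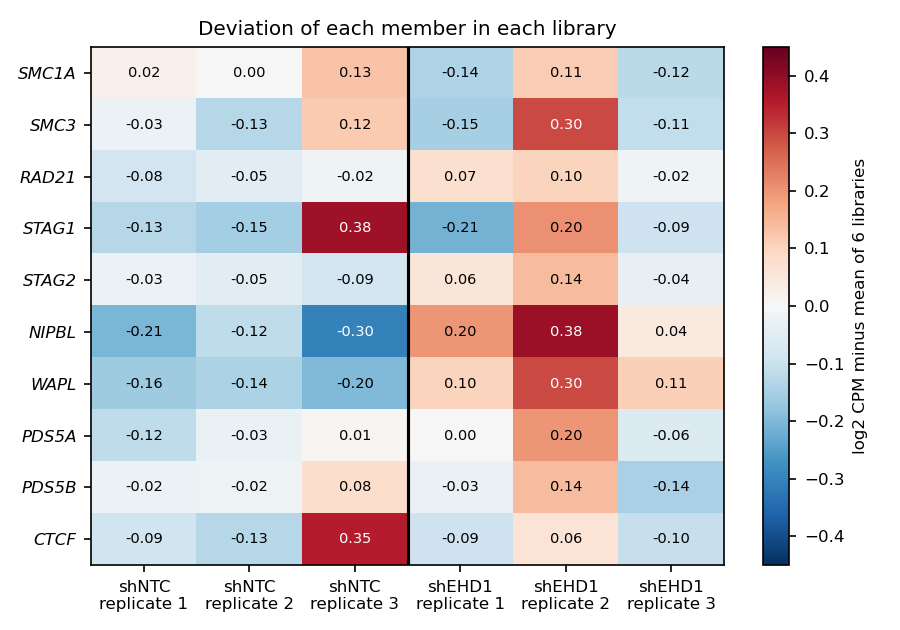
Log2 CPM (prior count 2) of each member in each library, minus the mean of that gene over the 6 libraries; red is above and blue below the mean. The column of shEHD1+Dox replicate 2 is above 0 for all 10 genes, and NIPBL and WAPL are below 0 in every shNTC+Dox library and above 0 in every shEHD1+Dox library.

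Levels of different genes were compared per kilobase of exon, and their order depended on the length used. With the union of annotated exons, the order in shNTC+Dox ran from SMC1A (36.5 ± 1.75 CPM per kilobase, SD, n = 3) and RAD21 (32.5 ± 0.74) through STAG2 (19.7 ± 0.41), PDS5A (17.4 ± 0.76), SMC3 (15.6 ± 1.33), WAPL (14.6 ± 0.30), NIPBL (10.4 ± 0.67), CTCF (8.71 ± 1.70) and PDS5B (8.04 ± 0.34) to STAG1 (7.79 ± 1.72). Of the neighbours in this order, PDS5A and SMC3, SMC3 and WAPL, NIPBL and CTCF, CTCF and PDS5B, and PDS5B and STAG1 had overlapping ranges of mean ± SD, and were not told apart. With the longest annotated transcript, RAD21 stood first at 56.1 CPM per kilobase, followed by STAG2 (45.6), SMC1A (39.8) and SMC3 (36.6), and STAG1 remained last at 10.1. By exon union, the percentile among all genes tested ran from 66.5 for STAG1 to 93.2 for SMC1A.

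Ratios of 2 transcripts within a library do not depend on the scaling between libraries, and are given without a test. STAG2 exceeded STAG1 per kilobase in every library, with a ratio of 2.92, 2.93 and 1.97 in the controls and 3.28, 2.60 and 2.83 in the knockdown. The difference of the log2 ratio was 0.17, and -0.02 without shNTC+Dox replicate 3. With the longest transcript as the length, the STAG2 to STAG1 ratio was 4.68 ± 0.99 in the controls and 5.21 ± 0.61 in the knockdown (SD, n = 3 each). SMC3 to SMC1A (0.43 ± 0.02 and 0.46 ± 0.03) and RAD21 to SMC3 (2.09 ± 0.16 and 2.22 ± 0.32) overlapped between the groups, by exon union. By the longest transcript, SMC3 to SMC1A was 0.92 ± 0.04 and 1.00 ± 0.08. PDS5A to PDS5B was 2.12, 2.25 and 2.15 in the controls and 2.30, 2.34 and 2.39 in the knockdown. These groups did not overlap, and neither gene passed the test alone. Groups also did not overlap for 39.3% of single genes tested, so the separation of this ratio is no test of a shift. The difference of that log2 ratio was 0.11, and ran from 0.09 to 0.14 when each library was left out.

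MAU2 (ENSG00000129933, chr19:19320829-19358754, plus strand), which binds and stabilises NIPBL, was at 65.0, 60.7 and 72.9 CPM in the controls and 53.4, 56.2 and 57.2 CPM in the knockdown. All shEHD1+Dox libraries lay below all controls, with a log2 fold change of -0.25 (95% interval -0.44 to -0.06). The change did not pass in edgeR (adjusted p = 0.0711) and passed in DESeq2 (adjusted p = 0.0442). With 1 library left out, MAU2 passed in no edgeR fit (adjusted p 0.0559 to 0.224), nor did it with the replicate block (0.110). The ratio of NIPBL to MAU2 per kilobase, a measure added after their values were seen, was 1.75, 2.00 and 1.46 in the controls and 2.83, 3.06 and 2.37 in the knockdown. The lowest shEHD1+Dox ratio lay above the highest control ratio. This had to be so, since in every shEHD1+Dox library NIPBL lay above and MAU2 below all controls. The separation is therefore no further result. Groups of single genes were apart for 39.3% of genes tested. With the longest transcript as the length, the ratio was 0.92 ± 0.14 in the controls and 1.46 ± 0.19 in the knockdown (SD, n = 3 each), so which of the pair was the more abundant in the controls depended on the length used.

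**Figure D4:**
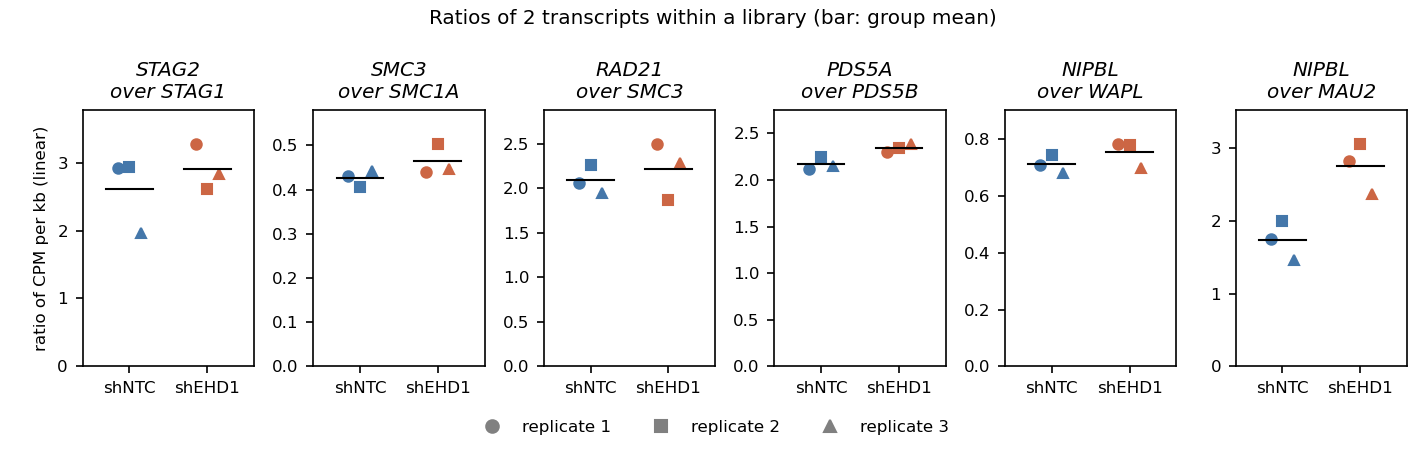
Linear ratio of 2 transcripts (CPM per kilobase of annotated exon) in each library, with the group mean as a bar; axes start at 0. Of the 6 ratios drawn, PDS5A over PDS5B and NIPBL over MAU2 have groups that do not overlap. For NIPBL over MAU2 this follows from the genes themselves, whose groups lay apart in opposite directions. Groups of single genes did not overlap for 39.3% of all genes tested.

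Of 17 genes that act on cohesin through the cell cycle, 8 were higher and 9 lower upon knockdown, with 1 in each direction past the edgeR threshold (adjusted p under 0.05) and a median log2 fold change of -0.16. DESeq2 called 3 higher and 4 lower, against 21.6% of all genes tested in either direction. By edgeR, 8.59% of all genes were higher and 8.75% lower. Of the 17, 10 had an unadjusted edgeR p under 0.05, against 32.3% of all genes. Groups were apart with shEHD1+Dox above for 4 and below for 6, against 19.9% and 19.4% of all genes. The list was not tested as a set. BUB1, the mitotic kinase whose histone mark recruits the shugoshin protectors of centromeric cohesin, rose from 148.6 ± 3.34 to 189.2 ± 12.9 CPM (SD, n = 3 each). On the log2 scale this is a change of 0.35 (edgeR adjusted p = 0.0110), and its adjusted p was 0.0524 without shEHD1+Dox replicate 1. DDX11, a helicase needed for sister chromatid cohesion, fell by 0.58 on the log2 scale, from 78.8 ± 9.37 to 52.7 ± 3.81 CPM (edgeR adjusted p = 0.00552). DDX11 has near-identical copies elsewhere in the genome, so its counts are uncertain.

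The enzymes that set and remove SMC3 acetylation did not pass the test with all 6 libraries. ESCO1, the acetyltransferase active through the cell cycle, had a log2 fold change of 0.21 (95% interval -0.0069 to 0.42, edgeR adjusted p = 0.167), and ESCO2, its S phase counterpart, of -0.44 (95% interval -0.87 to -0.0036, adjusted p = 0.152). HDAC8, the SMC3 deacetylase, was at 0.20 (95% interval -0.065 to 0.46, adjusted p = 0.276). Without shEHD1+Dox replicate 2, ESCO2 passed at -0.65 (edgeR adjusted p = 0.0444) and HDAC8 was at 0.093 (adjusted p = 0.583), and without shNTC+Dox replicate 3 ESCO2 was at -0.28 (adjusted p = 0.307). CDCA5 (sororin), which binds acetylated cohesin and counters WAPL, was at 87.1 ± 21.0 CPM in the controls and 63.8 ± 3.60 CPM in the knockdown (SD, n = 3 each). Its groups did not overlap, at a log2 fold change of -0.45 (95% interval -0.80 to -0.10) with an adjusted p of 0.0825 in edgeR and 0.0180 in DESeq2. CDCA5 passed in edgeR at -0.24 without shNTC+Dox replicate 3 (adjusted p = 0.0392) and at -0.57 without shNTC+Dox replicate 2 (adjusted p = 0.0351).

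Germline members of the family were measured beside their somatic paralogs. SMC1B, the meiotic paralog of SMC1A, was at 61.1 ± 5.73 CPM in the controls and 71.4 ± 8.34 CPM in the knockdown, and CTCFL (BORIS), the testis paralog of CTCF, at 50.1 ± 7.16 and 44.6 ± 1.28 CPM (SD, n = 3 each). Per kilobase of annotated exon in shNTC+Dox, SMC1B stood at 14.4 beside 36.5 for SMC1A, and CTCFL at 5.62 beside 8.71 for CTCF. STAG3 was at 8.38 ± 0.60 and 10.5 ± 1.70 CPM, with 25.3% of its exon bases shared with other genes, and REC8 at 1.11 ± 0.22 and 0.75 ± 0.26 CPM. RAD21L1 had 0 counts in 5 libraries and 4 counts in the remaining one. None of the 4 genes tested passed an edgeR adjusted p of 0.05 between the groups, and none did so by DESeq2 or had an unadjusted p under 0.05 (0 of 4 each). Over all genes tested, 17.3%, 21.6% and 32.3% did so. CTCFL passed without shNTC+Dox replicate 3, with a change of -0.29 on the log2 scale (edgeR adjusted p = 0.0110).

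Among 14 genes of the other SMC complexes, condensin and SMC5/6, 5 were higher and 9 lower. Against 17.3% of all genes tested, 1 of the 14 passed the edgeR threshold. This was NCAPD2, a condensin I subunit, which rose from 269.9 ± 20.7 to 347.6 ± 11.9 CPM (SD, n = 3 each, log2 fold change 0.36, edgeR adjusted p = 0.0121), with adjusted p-values of 0.0594 without shEHD1+Dox replicate 1 and 0.0534 without replicate 3. Among 11 genes that act with CTCF or cohesin at loops, none was higher by edgeR, by DESeq2 or at an unadjusted p under 0.05. At an edgeR adjusted p under 0.05, 3 were lower, where 8.75% of all genes tested were lower and 8.59% higher. These were the zinc finger factor PATZ1 (log2 fold change -0.38, adjusted p = 0.0130), the looping cofactor LDB1 (-0.27, adjusted p = 0.0232) and the topoisomerase TOP2A (-0.29, adjusted p = 0.0313). None of the 3 passed without shEHD1+Dox replicate 1 or without shEHD1+Dox replicate 3. LDB1 lost the call without each of the 6 libraries except shNTC+Dox replicate 3, and TOP2A also without shNTC+Dox replicate 2. With the replicate number as a block, 1 of the 3 passed.

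Proliferation markers moved in the same libraries. At an edgeR adjusted p under 0.05, 6 of 13 such genes were lower and 2 higher, against 8.75% and 8.59% of all genes tested. Of the 13, 11 had an unadjusted edgeR p under 0.05, against 32.3% of all genes. Groups were apart with shEHD1+Dox below for 9 and above for 2, against 19.4% and 19.9% of all genes. The summed level of the 13 was 2655 to 3292 CPM in the controls and 2209 to 2595 CPM in the knockdown. Those called lower were CCNE2, a cyclin of S phase entry, the replication clamp PCNA, and MCM2, MCM3, MCM4 and MCM6 of the replicative helicase. Those called higher were MKI67 and CCNB1, at log2 fold changes of 0.30 and 0.38. The mitotic gene CDK1 was at -0.11 and did not pass (edgeR adjusted p = 0.570). With each library left out in turn, PCNA and MCM3 passed every time. The other 6 called genes each lost their call in at least 2 of the 6 fits. None of the 13 markers is a member, and the part of this shift in the values of NIPBL, WAPL, BUB1 and CDCA5 was not tested.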

How the data were processed

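Reads were aligned by the authors to hg38. The study's methods name hisat2 with Ensembl annotations and StringTie, whereas the submitters' processing notes name STAR 2.7.3a and DESeq2. The authors deposited raw whole-number counts for each gene, and how StringTie output became counts is not given in the sources used here. Counts of 3 shNTC+Dox and 3 shEHD1+Dox libraries were tested with the quasi-likelihood test of edgeR 4.0.16 under R 4.3.3, after TMM scaling and with robust dispersions. The filter kept 16785 genes, those that reached 10 counts in 3 or more libraries, and p-values were adjusted over all of them by Benjamini-Hochberg. Intervals at 95% came from the quasi-likelihood standard error. Log2 CPM used a prior count of 2. Totals of 22711235 to 30582187 counts gave each member 1415 counts or more, so spread between libraries, not counting error, limits precision.

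Exon lengths and coordinates came from GENCODE 44 on GRCh38, in which 99.5% of identifiers were found. Members and gene lists were chosen with earlier results of these data known. The text names all members, EHD1, listed genes at an adjusted p under 0.05 (at most 6 a list), MAU2, ESCO1, ESCO2, CDCA5, HDAC8 and the germline paralogs. MKI67, CCNB1, CDK1 and NIPBL-DT were added after their values were seen. Same-numbered libraries showed no pairing (correlations of their deviations across genes of 0.07, -0.06 and -0.04). Between replicates, chi-square per degree of freedom was at least 5.56, so no library was another one sequenced again. Separate libraries from the same culture or RNA are not excluded by this. The lowest value was between shNTC+Dox replicates 1 and 2, which stood at 25.6 and 27.1 against replicate 3. The tests were also run on simulated data with the same dispersion for every gene, so that run does not bear on the calls given here. The protein comparison planned for paralogs was not run. Alternatives were DESeq2 size factors, no filter, 10 counts in every library, DESeq2 1.42.0, a replicate block and each library left out.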

Additional observations from a re-analysis of the deposited data

How the results depend on the processing

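In the fits with all libraries (edgeR with DESeq2's size factors, without the filter, with 10 counts required of all libraries, and with the replicate block, and DESeq2 itself), NIPBL and WAPL kept their call and their direction, and the number of members called stayed at 2 higher and 0 lower, with 0 at 2-fold. The cause of each change listed here was not tested. With 1 library left out, the number of members called higher ran from 0 (without shNTC+Dox replicate 1) to 2. Log2 fold changes then ran from 0.33 to 0.50 for NIPBL and from 0.27 to 0.37 for WAPL. The sign turned for genes that had not passed the test, with ranges of -0.12 to 0.12 for SMC3, -0.20 to 0.12 for STAG1, -0.097 to 0.048 for PDS5B and -0.19 to 0.066 for CTCF. The median over the members ran from -0.041 to 0.12.

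Among the cell cycle partners, called genes numbered 2 higher and 2 lower when 10 counts were required of all libraries and 3 higher and 4 lower by DESeq2, against 1 and 1, and ran from 0 to 3 higher and from 1 to 2 lower with 1 library left out. In the other SMC complexes DESeq2 called 1 lower, against 0, and leaving out a library gave 0 to 1 higher and 0 to 1 lower. Looping partners called lower numbered 1 with the replicate block and 0 to 3 with 1 library left out. Over all genes tested, 2910 were called at an adjusted p under 0.05, 1766 with the replicate block and 1322 to 3616 with 1 library left out. The replicate numbers showed no pairing. Among the proliferation markers called, the block took MCM2 (adjusted p = 0.0544), MCM6 (0.0731), CCNE2 (0.0521) and MKI67 (0.0665) above 0.05, as it did the Ewing sarcoma marker CD99 (0.0787), and NIPBL, WAPL, NIPBL-DT, BUB1, DDX11, NCAPD2 and PATZ1 kept their calls. Levels per kilobase depend on the transcript length assumed, and reads shared between overlapping genes limit STAG1, CTCF and STAG3.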
